A study of Mus musculus with 6 samples.

Results

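The Trbj2 cluster holds the downstream set of joining (J) genes of the mouse T cell receptor β (TCR-β) locus. Its clones were all those whose best J hit in the deposited clone lists was a Trbj2 gene. They made up 229984 of the 352074 clones of the 6 libraries, coding and non-coding. Of 7 Trbj2 genes, 6 were used by coding clones (TRBJ2-1, TRBJ2-2, TRBJ2-3, TRBJ2-4, TRBJ2-5 and TRBJ2-7 in the clone lists, Trbj2-1 and so on from here), while the annotated pseudogene Trbj2-6 was found in 1 non-coding clone with 1 UMI, in the spleen of mouse 1.

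A TCR-β chain gene is built in the thymus by joining a variable (V), a diversity (D) and a joining gene. The locus carries the order Trbd1, the Trbj1 genes, Trbc1, Trbd2, the Trbj2 genes and Trbc2, so that Trbd1 can join either J cluster while Trbd2 lies downstream of Trbj1 and next to Trbj2. The J gene gives the end of the complementarity-determining region 3 (CDR3), the loop at the V-D-J junction that contacts peptide and MHC, and bases can be lost from its 5′ end and added at the junction before joining.

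CD4+ T cells came from 3 C57BL/6 wildtype mice, per the methods adult females, and each mouse gave 1 kidney and 1 spleen library. In all 3 mice the right ureter was obstructed reversibly (RUUO) between days 0 and 6, the left ureter was ligated (UUO) on day 17, and the left UUO kidney and the spleen were taken on day 22, so no library came from an unobstructed mouse. The study asked whether CD4+ T cells in the fibrotic kidney were clonally expanded relative to the spleen. For donors of cell transfers, the paper describes a negative isolation step before CD4 beads for kidney cells. Total CD4+ cells of the spleen were isolated there with CD4 beads alone. For TCR-β sequencing the paper states that the CD4+ T cells were sorted. Any such difference in handling cannot be told apart from the organ. The clone lists hold TCR-β alone, and the CD4 label could not be checked on other markers.

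TCR-β mRNA was amplified by 5′ RACE with a random tag (unique molecular identifier, UMI) on each molecule, and values are UMI counts or counts of clonotypes, a clonotype being all clones with the same V gene, J gene and CDR3 bases. Coding clones, with neither a stop codon nor a frameshift in the CDR3, gave 773, 1248 and 693 UMIs in kidney 1, 2 and 3 and 160179, 224811 and 97735 in spleen 1, 2 and 3, where the number is that of the mouse. Kidney libraries were sequenced far deeper per molecule, with 472 to 765 reads per Trbj2 UMI against 8.53 to 21.2 in the spleen. A UMI counts an mRNA molecule, so that more cells of a clonotype and more TCR-β mRNA per cell cannot be told apart.

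The 6 coding Trbj2 genes lie in numerical order on the plus strand of chromosome 6 (RefSeq annotation of GRCm38.p6), with Trbj2-1 at chr6:41542754-41542803, Trbj2-2 at chr6:41542957-41543007 and Trbj2-3 at chr6:41543223-41543271. Trbj2-4 follows at chr6:41543362-41543410, Trbj2-5 at chr6:41543453-41543501 and Trbj2-7 at chr6:41543810-41543856. The part of each gene that enters the CDR3 is shown, as CDR3 length includes it and trimming removes bases from it. It was read 5′ to 3′ from spleen clonotypes without J trimming and held by 90.2% to 97.9% of them, and capitals mark the bases kept in at least 50% of all coding spleen clonotypes with that gene.
Trbj2-1: taaCTATGCTGAGCAGTTCTTC
Trbj2-2: caAACACCGGGCAGCTCTACTTT
Trbj2-3: aGTGCAGAAACGCTGTATTTT
Trbj2-4: agTCAAAACACCTTGTACTTT
Trbj2-5: aacCAAGACACCCAGTACTTT
Trbj2-7: ctccTATGAACAGTACTTC
Trbj2-2 contributes the longest end, with 23 bases, and Trbj2-7 the shortest, with 19. Trbj2-3 kept all but its first base in at least 50% of the clonotypes, whereas Trbj2-7 kept 15 of its 19 bases.

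About 2 in 3 TCR-β mRNA molecules used a Trbj2 gene in both organs. The Trbj2 share of the coding UMIs in mice 1, 2 and 3 was 68.4%, 62.0% and 68.1% for the kidney and 65.9%, 65.1% and 67.7% for the spleen. The kidney of mouse 2 lay below all other libraries, and the kidney range enclosed the spleen range. The kidney mean was 66.2% ± 3.61 (SD, n = 3) and the spleen mean 66.2% ± 1.37 (SD, n = 3), a difference of -0.051 percentage points (exact two-sided permutation test, p = 1). With 3 against 3 libraries, this test cannot give a p below 0.1. Counting each clonotype once, the kidney share was 65.4% ± 1.38 (SD, n = 3) and the spleen share 65.6% ± 1.28 (SD, n = 3). Depth limits this comparison in the kidney: the 95% interval of the share in the kidney of mouse 2 ran from 59.3% to 64.7%, and that in its spleen from 64.9% to 65.3% (exact binomial intervals, which cover counting error only).

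Among the spleens, Trbj2-7 was used most and Trbj2-2 least, and the order of the genes was almost the same in every spleen. Trbj2-7 held 17.1%, 16.9% and 17.4% of the coding UMIs of the spleens of mice 1, 2 and 3, and 18.2%, 17.4% and 17.9% in the kidneys. Trbj2-5 held 13.7%, 13.5% and 14.1% in the spleens and 12.03%, 13.8% and 11.5% in the kidneys. Trbj2-7 was the most used Trbj2 gene in all 6 libraries, and Trbj2-5 came second in all but the kidney of mouse 1, where Trbj2-1 was second.
Trbj2-3 held 10.5%, 10.1% and 10.5% of the coding UMIs in the spleens and 9.70%, 9.86% and 9.38% in the kidneys, so that every kidney lay below every spleen. Ranges of kidney and spleen did not overlap for this gene alone, 8.33% of the 12 Trbj genes. Trbj2-1 and Trbj2-4 were neighbours whose spleen ranges overlapped, with means of 9.42% ± 0.307 (SD, n = 3) and 9.39% ± 0.216 (SD, n = 3). In the kidneys Trbj2-1 held 14.1%, 7.93% and 10.2%, the widest spread of the 6 genes, and Trbj2-4 held 9.06%, 6.97% and 10.5%. Trbj2-2 held 6.08%, 5.97% and 6.44% in the spleens and 5.30%, 6.09% and 8.51% in the kidneys.

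**Figure D1:**
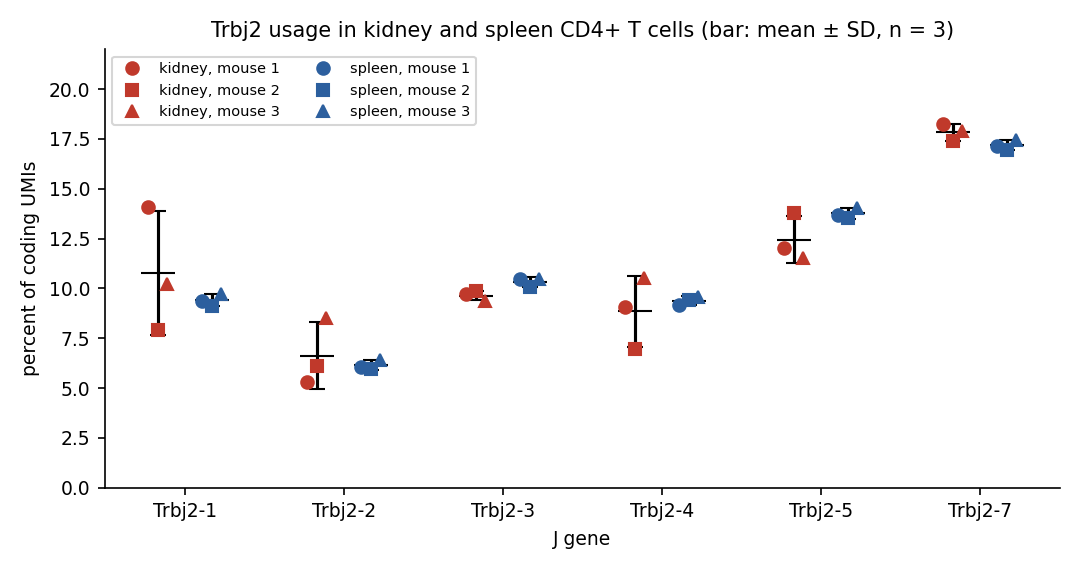
Percent of coding UMIs with each Trbj2 gene (y axis) by gene (x axis); red points are kidney libraries, blue points spleen libraries, symbols mark the mouse, and bars give the mean ± SD (n = 3). Spleens lie close together for every gene, while Trbj2-1 ranges from 7.93% to 14.1% in the kidneys.

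No Trbj2 gene passed the test between the organs. edgeR's quasi-likelihood test on all 12 Trbj genes called 0 (0% of those tested), with 0 at an unadjusted p under 0.05. The log2 ratios of kidney to spleen ran from -0.13 ± 0.131 (SE) for Trbj2-4 to 0.14 ± 0.163 (SE) for Trbj2-1, with Trbj2-3 at -0.09 ± 0.0912 (SE). The median was -0.022 over the Trbj2 genes and 0.015 over all Trbj genes, and the lowest adjusted p of a Trbj2 gene was 0.709 (edgeR). DESeq2 also called 0, with 1 at an unadjusted p under 0.05. Without the kidney of mouse 2, edgeR called 3 Trbj genes, among them Trbj2-1 at a log2 ratio of 0.38 (adjusted p = 0.0314), whereas without the kidney of mouse 1 its log2 ratio was -0.10.

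Single large clonotypes held a large part of some kidney values. In the kidney of mouse 3, 1 clonotype held 45.2% of the 73 Trbj2-4 UMIs, and Trbj2-4 made up 10.5% of its coding UMIs but 6.77% of its coding clonotypes. In the kidney of mouse 1, 1 clonotype held 15.6% of the 109 Trbj2-1 UMIs, and Trbj2-1 made up 14.1% of coding UMIs and 11.0% of coding clonotypes. Counted by clonotypes, the kidney range of every Trbj2 gene overlapped the spleen range.

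Non-coding rearrangements are carried beside a working receptor gene and are not chosen for their protein, so that their J usage was set against that of coding clones. In the spleens, Trbj2-1 was more used among non-coding clones, and Trbj2-2, Trbj2-3 and Trbj2-5 were less used. Trbj2-1 held 11.7%, 12.6% and 12.1% of the non-coding UMIs of the spleens of mice 1, 2 and 3, above the 9.39%, 9.13% and 9.74% of their coding UMIs. Trbj2-5 held 11.2%, 11.3% and 12.02% of the non-coding UMIs, below its coding share in each spleen. Trbj2-2 held 4.89%, 4.86% and 5.34%, also below its coding share in each spleen.
edgeR with the mouse as a block called 7 of the 12 Trbj genes (58.3%), 3 higher and 4 lower in non-coding clones, of which 4 were Trbj2 genes. The log2 ratio of non-coding to coding UMIs was 0.38 ± 0.0306 (SE) for Trbj2-1 (adjusted p = 7.75e-11, edgeR). It was -0.30 ± 0.0462 (SE) for Trbj2-2 (adjusted p = 3.01e-06), -0.26 ± 0.0330 (SE) for Trbj2-5 (adjusted p = 1.00e-07) and -0.12 ± 0.0324 (SE) for Trbj2-3 (adjusted p = 0.00166, edgeR). Trbj2-4 and Trbj2-7, at -0.04 and 0.02, did not pass (adjusted p = 0.385 and 0.627, edgeR). The median was -0.079 over the Trbj2 genes and -0.015 over all 12.

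The call of Trbj2-3 was lost without the spleen of mouse 1 (log2 ratio -0.09, adjusted p = 0.0781, edgeR) and without that of mouse 3 (log2 ratio -0.14, adjusted p = 0.0631). With at least 2 UMIs per clonotype, edgeR called 3 Trbj genes, and Trbj2-1 was the Trbj2 gene among them (adjusted p = 0.0475), with Trbj2-2 at -0.37 and Trbj2-5 at -0.27 (adjusted p = 0.325 for both). Sequencing errors can turn a coding CDR3 into a non-coding one, and 2.04% to 5.27% of the non-coding clonotypes of a spleen lay 1 inserted or deleted base from a larger coding clonotype. Without these, an alternative chosen after seeing the data, the same 4 Trbj2 genes were called.

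In the kidneys, non-coding Trbj2 UMIs numbered 17, 38 and 25 in mice 1, 2 and 3. Trbj2-1 held 11.8%, 8.33% and 14.6% of the non-coding UMIs there, and the contrast with coding clones was not tested at this depth. The Trbj2 cluster as a whole held 62.8%, 65.3% and 65.9% of the non-coding UMIs of the spleens, and between 5.36% and 6.61% of its spleen clonotypes were non-coding.

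**Figure D2:**
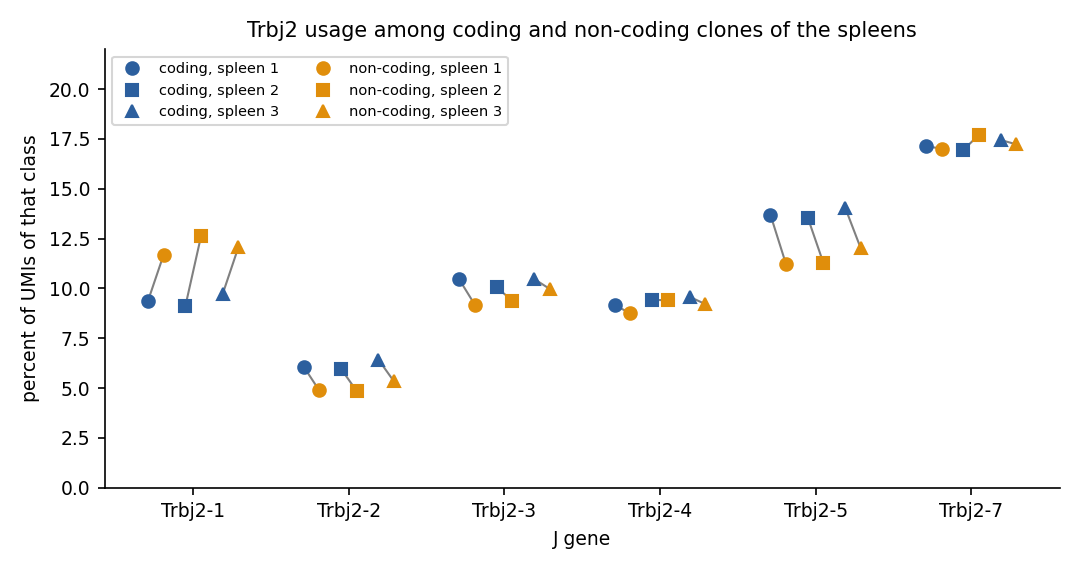
Percent of the UMIs of a class with each Trbj2 gene (y axis) by gene (x axis) in the 3 spleens; blue points are coding and orange points non-coding clones, and a line joins both values of a spleen. Trbj2-1 lies higher among non-coding clones in 3 of 3 spleens, and Trbj2-2, Trbj2-3 and Trbj2-5 lie lower in 3 of 3. Trbj2-4, which was not called, also lies lower in 3 of 3, at -0.40, -0.016 and -0.36 percentage points in mice 1, 2 and 3.

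Trbd2 was found mainly with the Trbj2 cluster. Among spleen clonotypes of the Trbj2 cluster with a single D hit, 59.8% ± 0.521 (SD, n = 3) had Trbd2, against 7.78% ± 0.160 (SD, n = 3) in the Trbj1 cluster, which lies upstream of Trbd2. The kidneys gave 59.4% ± 3.56 (SD, n = 3) and 5.89% ± 3.16 (SD, n = 3). By gene, Trbj2-2 had the lowest Trbd2 share in the spleens, at 48.0% ± 0.978 (SD, n = 3), and the other 5 genes lay between 59.3% and 61.8%. The D gene is short and can be lost at the junction, and 24.2% to 24.4% of the spleen Trbj2 clonotypes had no D hit. The error of the D calls was not measured, also not for the Trbd2 hits in the Trbj1 cluster. These shares are a description and were not tested.

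The share of Trbj2 differed between V genes. Of the clonotypes of a tested V gene in the spleens, between 59.6% and 76.6% used a Trbj2 gene (mean of 3 spleens; median of the tested V genes 65.7%). For each of the 22 Trbv genes with at least 100 coding clonotypes in every spleen, the log2 ratio of Trbj2 to Trbj1 clonotypes was set against that of the whole spleen, and limma called 13 (59.1%), 7 higher and 6 lower, each the same way in 3 of 3 spleens.

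The 5 called V genes with the highest Trbj2 share were Trbv30, Trbv17, Trbv12-2, Trbv14 and Trbv3. Trbv30 had a Trbj2 gene in 76.6%, 74.6% and 78.7% of its clonotypes in the spleens of mice 1, 2 and 3, where all clonotypes gave 65.3%, 64.5% and 67.0%. Its log2 ratio was 0.77 ± 0.0398 (SE) above that of the whole spleen (adjusted p = 1.59e-05, limma). Trbv30 is one of the rarely used V genes, with 178 to 350 clonotypes per spleen.
Trbv17 gave 75.0%, 73.8% and 79.5% and Trbv12-2 gave 73.8%, 75.1% and 76.7%, at log2 ratios of 0.74 ± 0.0606 (SE) and 0.66 ± 0.0392 (SE). Trbv14 and Trbv3 followed at 0.49 and 0.39, and the adjusted p of these 4 V genes ran from 1.86e-05 to 5.55e-05 (limma). Trbv3 had 5874 to 10413 clonotypes per spleen, so that a raised Trbj2 share was seen in rare and in common V genes.

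The 5 called V genes with the lowest Trbj2 share were Trbv26, Trbv31, Trbv1, Trbv12-1 and Trbv13-3. Trbv26 gave 60.1%, 58.1% and 60.5% in the 3 spleens, a log2 ratio of -0.37 ± 0.0332 (SE, adjusted p = 7.55e-05, limma). Trbv31, which lies downstream of the Trbj2 genes in the opposite orientation and joins by inversion, gave 61.2%, 61.4% and 63.3% (log2 ratio -0.23 ± 0.0314 SE, adjusted p = 0.000835, limma). Trbv1, the V gene farthest upstream of the J genes among those tested, gave 61.8%, 61.2% and 64.4% (log2 ratio -0.20, adjusted p = 0.00146, limma), and its call was lost with at least 2 UMIs per clonotype (log2 ratio -0.14, adjusted p = 0.0738).
Trbv12-1 and Trbv13-3 were closer to the whole spleen, at -0.14 and -0.13 (adjusted p = 0.0282 and 0.0110, limma). Leaving out the spleen of mouse 1, 2 or 3 ended the call of Trbv13-3 each time (log2 ratios -0.12, -0.13 and -0.13), as did keeping clonotypes with at least 2 UMIs (-0.12, adjusted p = 0.115), and leaving out that of mouse 2 or 3 ended that of Trbv12-1 (log2 ratios -0.12 and -0.11). The call of Trbv12-1 also ended when UMIs replaced clonotypes (log2 ratio -0.16, adjusted p = 0.161, limma).

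Among non-coding clonotypes, 18 V genes could be tested and limma called 9. Of the 13 V genes called among coding clonotypes, 3 were also called there in the same direction and 0 in the opposite one. Trbv14, Trbv23, Trbv26 and Trbv30 were called among coding clonotypes but could not be tested there. They had fewer than 100 non-coding clonotypes in a spleen. Trbv17 was at 0.71 (adjusted p = 0.000891, limma) and Trbv31 at -0.50 (adjusted p = 0.000375). Trbv1 had a Trbj2 gene in 47.3%, 54.5% and 54.4% of its non-coding clonotypes (log2 ratio -0.74, adjusted p = 2.73e-05, limma), below its coding share in each spleen. Trbv12-2 and Trbv3 gave 0.25 and 0.10 and did not pass (adjusted p = 0.0561 and 0.408, limma). Trbv12-1 and Trbv13-3 turned to 0.14 and 0.11 and did not pass either (adjusted p = 0.212 and 0.352, limma).

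In the kidneys the V genes had few clonotypes, and these shares were not tested. Of the V genes with a high share in the spleens, summed over the 3 kidneys, a Trbj2 gene was used by 100% of 5 Trbv30 clonotypes, 70.0% of 20 Trbv17, 73.7% of 19 Trbv12-2, 71.4% of 21 Trbv14 and 70.6% of 119 Trbv3 clonotypes. Of those with a low share, it was used by 68.5% of 54 Trbv26 clonotypes, 69.8% of 96 Trbv31, 63.2% of 204 Trbv1, 46.7% of 15 Trbv12-1 and 72.3% of 148 Trbv13-3 clonotypes. Over all kidney clonotypes the share was 65.4% (mean of 3 kidneys). These named V genes high in the spleens all lay above it. Of the named ones low in the spleens, Trbv1 and Trbv12-1 lay below it, but Trbv26, Trbv31 and Trbv13-3 lay above it. Of the other called V genes, Trbv23 (70.0% of 20 clonotypes) and Trbv15 (64.6% of 65) were high in the spleens. Trbv23 lay above the kidney share and Trbv15 below it. Trbv19, low in the spleens, lay below it at 59.8% of 117 clonotypes.

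**Figure D3:**
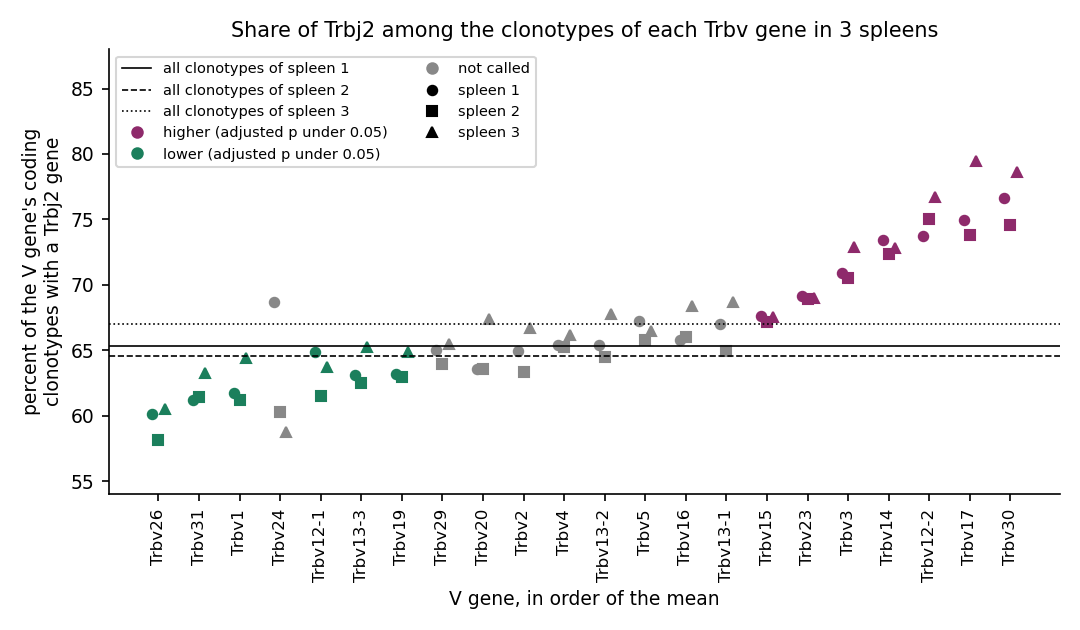
Percent of a V gene's coding clonotypes with a Trbj2 gene (y axis) for the 22 tested V genes in order of their mean (x axis); symbols mark the spleen, colours the limma call, and lines the share over all clonotypes of each spleen. Shares rise from a mean of 59.6% for Trbv26 to 76.6% for Trbv30.

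The genes of the cluster did not share these V preferences evenly. For each V-J pair, the clonotypes observed in a spleen were divided by those expected if V and J were joined independently over all 12 Trbj genes, so that the ratio also carries the V gene's Trbj2 share. Trbj2-5 was found with Trbv12-2 at ratios of 1.89, 2.07 and 1.97 in the spleens of mice 1, 2 and 3, from 182, 232 and 174 clonotypes, the highest mean of the pairs with a Trbj2 gene. With the same V gene, Trbj2-2 was found at 0.552, 0.566 and 0.571, the lowest mean. Trbj2-4 with Trbv12-2 varied from 0.339 through 0.578 to 0.851, so that its mean of 0.589 ± 0.256 (SD, n = 3) is not well determined.
Among non-coding clonotypes summed over the spleens, Trbj2-5 was found with Trbv12-2 at 1.16 times (76 clonotypes) and Trbj2-2 at 1.54 times (44 clonotypes) the expected number. The low ratio of Trbj2-2 with Trbv12-2 among coding clonotypes was therefore not seen among the non-coding ones.

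Other pairs lay closer to 1. Trbj2-3 with Trbv30 stood at 1.57 ± 0.101 (SD, n = 3), Trbj2-5 with Trbv14 at 1.38 ± 0.0364 (SD, n = 3) and Trbj2-2 with Trbv17 at 1.35 ± 0.114 (SD, n = 3). Trbv4 was found with Trbj2-4 at 1.31 ± 0.0303 (SD, n = 3) and with the neighbouring Trbj2-3 at 0.749 ± 0.0237 (SD, n = 3). Trbj2-5 had 11 of 22 pairs beyond 1.2-fold in either direction. Of the 22 pairs of each other gene, Trbj2-4 had 6, Trbj2-2 had 4, Trbj2-3 had 4, Trbj2-7 had 1 and Trbj2-1 had 0. Pairs with a Trbj1 gene were not counted. Some counted pairs had a rare V gene and varied between spleens, such as Trbv24 with Trbj2-4 at 1.32 ± 0.273 (SD, n = 3). These ratios are a description, and no test was run on them.

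**Figure D4:**
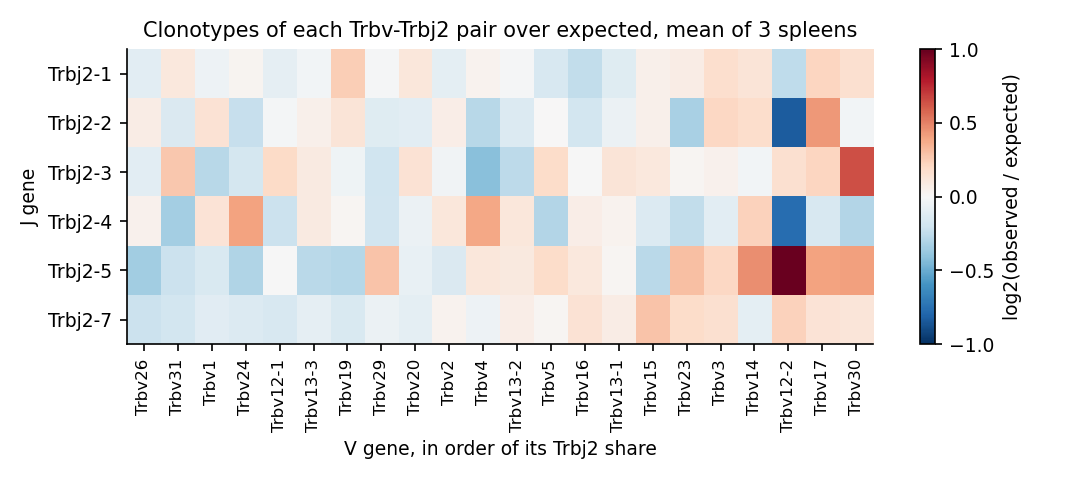
Mean over 3 spleens of log2(observed / expected) coding clonotypes for each pair of a Trbj2 gene (rows) and a V gene (columns, in order of the V gene's Trbj2 share); red is above and blue below expected. The strongest colours stand in the Trbv12-2 column, red for Trbj2-5 and blue for Trbj2-2 and Trbj2-4.

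By the percent of its clonotypes with each of 24 V genes, mean of 3 spleens, Trbj2-1 was most like Trbj2-2 among all Trbj genes (Pearson r = 0.987), and Trbj2-5 was most like Trbj2-7 (r = 0.990). Trbj2-3 was most like Trbj1-4 (r = 0.977) and Trbj2-4 most like Trbj1-3 (r = 0.978). The points are V genes of the same libraries and every J gene shares the same common V genes, with r between 0.865 and 0.908 even to the least similar J gene.

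Between kidney and spleen, 270 V-J pairs had at least 10 UMIs, and edgeR called 2 (0.741%), with 31 at an unadjusted p under 0.05. The test has low power at the kidney depth, as most changes simulated for pairs were not called, so that pairs without a call may still differ. Of the 136 pairs with a Trbj2 gene, 1 was called, and 16 had an unadjusted p under 0.05. The median log2 ratio was -0.25 over these pairs and -0.30 over all pairs. The called pair was Trbv20 with Trbj2-3, which held 0.517%, 2.16% and 2.74% of the coding UMIs of the kidneys of mice 1, 2 and 3 and 0.486%, 0.551% and 0.563% of those of the spleens. The kidneys of mice 2 and 3 stood far above the spleens, and that of mouse 1 lay within their range. The log2 ratio was 1.78 ± 0.370 (SE, adjusted p = 0.0469, edgeR).

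In the kidneys of mice 2 and 3, 1 clonotype held 24 of 27 and 12 of 19 UMIs of this pair. By clonotypes, the pair held 0.621%, 0.526% and 1.27% of kidney clonotypes and 0.502% ± 0.0302 (SD, n = 3) of spleen clonotypes, a log2 ratio of 0.59 that did not pass (adjusted p = 0.776, edgeR). With the mouse as a block, the log2 ratio was 1.63 and did not pass (adjusted p = 0.0853, edgeR), and 0 pairs were called, with 11 at an unadjusted p under 0.05. The call was also lost without the kidney of mouse 2 (1.56), the kidney of mouse 3 (1.51), the spleen of mouse 2 (1.81) and the spleen of mouse 3 (1.82, adjusted p = 0.515, edgeR).

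Mean CDR3 length differed between the Trbj2 genes, and no difference between the organs passed the test. In the spleens, coding Trbj2-2 clonotypes had the longest CDR3, at 14.5, 14.5 and 14.5 amino acids, and Trbj2-7 the shortest, at 13.3 in each spleen. Trbj2-3 gave 14.3 ± 0.0210 (SD, n = 3), Trbj2-1 14.1 ± 0.0157 (SD, n = 3), Trbj2-4 13.98 ± 0.0019 (SD, n = 3) and Trbj2-5 13.8 ± 0.0143 (SD, n = 3). In Trbj2-7 clonotypes, 27.6% ± 0.0722 (SD, n = 3) of the CDR3s had 12 amino acids or fewer, against 5.76% ± 0.406 (SD, n = 3) in Trbj2-2 clonotypes. Trbj2-1 has 1 germline base more than Trbj2-3 and had the shorter CDR3. It lost 3.63 ± 0.0295 bases (SD, n = 3) from its 5′ end, against 1.52 ± 0.0261 (SD, n = 3) for Trbj2-3. Trbj2-4 lost 2.42 ± 0.0087 bases (SD, n = 3), fewer than Trbj2-1, but had a shorter CDR3. Between V and J lay 10.0 ± 0.0707 bases (SD, n = 3) in Trbj2-1 and 8.86 ± 0.0278 (SD, n = 3) in Trbj2-4 clonotypes. What sets the order was not tested.

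Over all Trbj2 clonotypes, mean CDR3 length was 13.8, 14.0 and 13.9 amino acids in the kidneys of mice 1, 2 and 3 and 13.9 in each spleen. The means were 13.91 ± 0.0638 (SD, n = 3) and 13.90 ± 0.00454 (SD, n = 3), and the difference of 0.016 was within the spread of the kidneys (exact permutation test, p = 0.7). By gene, 0 of 6 passed for length between the organs, with exact permutation p-values of 0.4 to 1 and an adjusted p of 1 for each over the 12 Trbj genes.

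**Figure D5:**
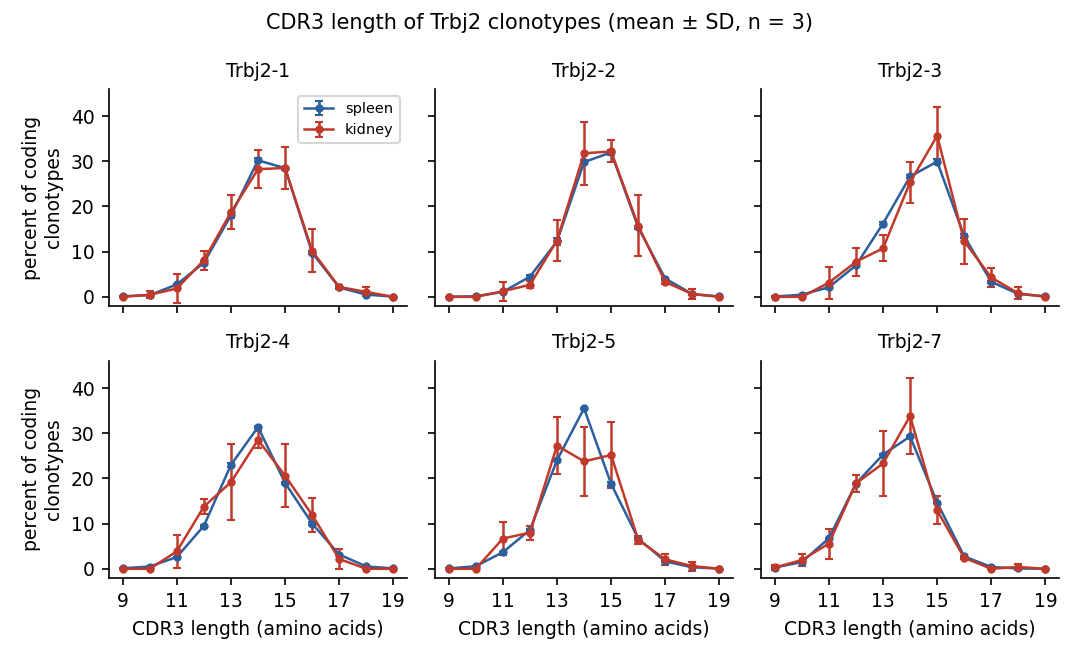
Percent of coding clonotypes (y axis) by CDR3 length in amino acids (x axis) for each Trbj2 gene; lines and bars give the mean ± SD (n = 3) of spleens in blue and kidneys in red. The Trbj2-7 curve lies at shorter lengths than that of Trbj2-2. Kidney and spleen curves lie close at many lengths but differ by more than the kidney SD at some, such as Trbj2-5 at 14 amino acids (23.8% ± 7.68 in the kidney, 35.5% in the spleen), and single lengths were not tested.

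Kidney Trbj2 clonotypes had lost 2.84 ± 0.119 bases (SD, n = 3) of the J end and spleen ones 2.90 ± 0.0110 (SD, n = 3; exact permutation test, p = 0.7). By gene, Trbj2-3 lost 1.02, 1.34 and 0.723 bases on average in kidney 1, 2 and 3 and 1.54, 1.49 and 1.52 in the spleens. Trbj2-4 lost 1.96, 2.12 and 2.00 bases in kidney 1, 2 and 3 and 2.42, 2.41 and 2.42 in the spleens. Trbj2-7 lost 3.795, 3.89 and 3.74 bases in kidney 1, 2 and 3 and 3.65, 3.63 and 3.64 in the spleens. For these 3 genes the organs did not overlap, with less trimming in the kidney for Trbj2-3 and Trbj2-4 and more for Trbj2-7, while 33.3% of the 12 Trbj genes had such ranges. Each gave the smallest p the design allows (exact permutation test, p = 0.1, adjusted p = 0.3 over the 12 Trbj genes), and each kidney value rests on 32 to 114 clonotypes.

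Of the Trbj2 clonotypes of the kidneys of mice 1, 2 and 3, 52.4% of 313, 52.7% of 490 and 43.2% of 317 were detected in the matching spleen. In the spleens of the other mice, 3.88% to 9.58% were found. The spleen of mouse 3, which gave the lowest matching share, had 97735 coding UMIs, against 160179 and 224811 in mice 1 and 2. Spleens were not brought to equal depth, and the effect of depth on these shares was not tested. The mean for matching organs, 49.4% ± 5.37 (SD, n = 3), was the highest of the 6 ways to assign spleens to kidneys (one-sided exact permutation, p = 0.167, which is the lowest p that 6 assignments can give). Of the kidney Trbj2 clonotypes holding 3 UMIs or more, 36 of 40, 39 of 45 and 16 of 19 were detected in the matching spleen, against 45.9%, 45.8% and 36.0% of those with 1 UMI. The shares of Trbj1 clonotypes were 40.6%, 47.4% and 43.6%, lower than Trbj2 in mice 1 and 2 and higher in mouse 3. The difference of 5.56 ± 6.10 percentage points (SD, n = 3) was within its spread (exact sign-flip permutation test, p = 0.5, where 3 pairs cannot give a p below 0.25).

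Kidney Trbj2 clonotypes held 1.69, 1.58 and 1.49 UMIs on average in mice 1, 2 and 3 and spleen ones 1.47, 1.61 and 1.27. The spleen of mouse 2 lay above the kidney of the same mouse, and the log2 ratio of 0.13 was within the spread (exact permutation test, p = 0.4). Over clonotypes with at least 2 UMIs it was 0.36, and p reached the smallest value possible (exact permutation test, p = 0.1). Trbj1 clonotypes held 1.54 ± 0.191 UMIs (SD, n = 3) in the kidneys and 1.41 ± 0.177 (SD, n = 3) in the spleens. The spleen means ranked in the order of the coding UMIs of the spleens, and libraries were not brought to equal depth. These values therefore cannot show whether clone size was alike in the organs. Among kidney clonotypes with at least 3 UMIs, Trbj2 made up 75.5% of 53, 60.0% of 75 and 52.8% of 36 in mice 1, 2 and 3, with no direction in common relative to clonotypes with 1 UMI (62.4%, 64.3% and 67.0%). Kidney clonotypes with 2 UMIs gave 68.9%, 69.1% and 73.7%, above those with 1 UMI in each mouse. In the spleens, Trbj2 made up 64.8%, 63.8% and 66.3% of clonotypes with 1 UMI. It made up 67.3%, 66.4% and 71.0% of those with 3 or more UMIs, higher in each spleen. These shares were not tested.

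The Trbj2 clonotypes with the most UMIs in each kidney are shown by their CDR3, from the first to the last base, as examples of what carries these values; capitals mark the germline J bases that were kept. In mouse 3, 3 clonotypes tied for the third place with 7 UMIs and are not shown.
Mouse 1, Trbv15 with Trbj2-7: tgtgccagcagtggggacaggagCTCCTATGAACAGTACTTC
Mouse 1, Trbv5 with Trbj2-1: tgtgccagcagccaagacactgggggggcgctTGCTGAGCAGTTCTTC
Mouse 1, Trbv15 with Trbj2-3: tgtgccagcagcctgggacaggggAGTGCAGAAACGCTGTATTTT
Mouse 2, Trbv13-3 with Trbj2-7: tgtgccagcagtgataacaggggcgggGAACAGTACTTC
Mouse 2, Trbv20 with Trbj2-3: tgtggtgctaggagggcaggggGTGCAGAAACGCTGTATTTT
Mouse 2, Trbv13-1 with Trbj2-5: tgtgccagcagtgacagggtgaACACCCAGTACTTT
Mouse 3, Trbv1 with Trbj2-4: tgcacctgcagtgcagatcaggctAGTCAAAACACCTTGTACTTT
Mouse 3, Trbv20 with Trbj2-3: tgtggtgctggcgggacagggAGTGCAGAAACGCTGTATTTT
The clonotypes of mouse 1 held 20, 17 and 13 kidney UMIs in this order and 96, 64 and 23 spleen UMIs. Those of mouse 2 held 28, 24 and 21 in the kidney and 101, 93 and 234 in the spleen, where the Trbv13-1 with Trbj2-5 clonotype was the largest of all coding clonotypes. Those of mouse 3 held 33 and 12 in the kidney and 4 and 30 in the spleen. The Trbv1 with Trbj2-4 clonotype of mouse 3 thus made up 4.76% of the kidney UMIs (exact 95% interval 3.30% to 6.62%) and 0.00409% of the spleen UMIs. None of the 8 was found in a library of another mouse. Both Trbv20 with Trbj2-3 clonotypes are those that dominate the called pair. Their CDR3s both hold 42 bases but differ in nucleotide and in amino acid sequence. Trbj2-3 lost 1 base in that of mouse 2 and 0 in that of mouse 3.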

How the data were processed

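TCR-β libraries of CD4+ T cells from 3 kidneys and 3 spleens were used. The authors ran MiXCR on the UMI-tagged 5′ RACE reads. The deposited clone lists give raw counts of UMIs and of reads without normalization. Per the labels, the genome build was GRCm38 (mm10) and R 4.4.2 was used. Members and gene lists were chosen with earlier results of these data known.

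A clonotype is a distinct set of V gene, J gene and CDR3 bases. J trimming was read from the deposited J alignments. UMIs per Trbj gene and per V-J pair with at least 10 UMIs were tested with edgeR 4.0.16 (library sizes only, quasi-likelihood), and V pairing with limma 3.58.1 on log2 ratios of clonotypes with a pseudocount of 0.5, all with Benjamini-Hochberg adjustment over every gene or pair tested and a threshold of 0.05. A called gene is one with an adjusted p under 0.05. Single values were compared by exact permutation over libraries in Python 3.11.15 with scipy 1.17.1. All 24 Trbv names matched RefSeq symbols of GRCm38.p6, from which J coordinates were taken. The tests across genes were tested on simulated counts.

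Replicate numbers name the mouse per the labels, so they pair kidney and spleen. Deviations of paired libraries from the organ means correlated at -0.28, 0.48 and 0.33 in mice 1, 2 and 3 over the 12 Trbj genes. Organs were compared unpaired. Blocking by mouse was an alternative, beside other normalization, tools (DESeq2 1.42.0), units, filters, clonotype definitions and leaving out libraries.

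Named were the 6 Trbj2 genes, the 5 V genes with the highest and the 5 with the lowest Trbj2 share among those called the same way in 3 of 3 spleens, called Trbj2 pairs, the 3 largest Trbj2 clonotypes per kidney without ties at the last place, and the most similar Trbj gene of each Trbj2 gene. Other V genes and pairs were named after their values were seen.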

Additional observations from a re-analysis of the deposited data

How the results depend on the processing

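The Trbj2 share differed by 0.516 percentage points by reads and 0.757 without the largest clonotype of each library, against -0.051, and by -1.17 to 2.03 when 1 library was left out, turning sign without the kidney of mouse 2 or the spleen of mouse 3. The length difference ran from -0.013 (without the kidney of mouse 2) to 0.050 and that of J trimming from -0.113 to 0.0055 (without the kidney of mouse 1), the latter turning to 0.072 with UMI weights and 0.291 among non-coding clones. No p of these fell below 0.1, the smallest possible. UMIs per clonotype gave log2 ratios of 0.040 to 0.216 without 1 library and 0.36 over clonotypes with at least 2 UMIs. The overlap was 57.4% by amino acids, 38.0% with at least 2 spleen UMIs, 62.2% weighted by UMIs and 47.8% to 52.5% without 1 mouse, and its difference from Trbj1 2.44 to 8.53 points.

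Without 1 library, 0 to 3 Trbj genes were called between organs (3 without the kidney of mouse 2), 6 to 8 between non-coding and coding clones, 9 to 11 V genes and 0 to 5 V-J pairs. Without 1 library, the log2 ratio of kidney to spleen ran from -0.10 (without the kidney of mouse 1) to 0.38 for Trbj2-1, from -0.27 to 0.056 (without the kidney of mouse 2) for Trbj2-4 and from -0.092 (without the kidney of mouse 3) to 0.19 for Trbj2-2. Trbj2-7 was at -0.022 by clonotypes and, in the non-coding contrast, at -0.013 (without the spleen of mouse 2) to 0.035. Pairs numbered 11 with DESeq2, 0 by clonotypes (10 at an unadjusted p under 0.05), 1 without the largest clonotypes, and, without 1 library, 0 without the kidney of mouse 2, the kidney of mouse 3 or the spleen of mouse 3, 1 without the spleen of mouse 2, 3 without the kidney of mouse 1 and 5 without the spleen of mouse 1. With at least 2 UMIs per clonotype, 3 Trbj genes and 7 of 19 V genes were called, and Trbv1 (-0.14) and Trbv13-3 (-0.12) were not. Among non-coding clones Trbv12-1 was at 0.14 and Trbv13-3 at 0.11.

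With the mice paired as a block, the share (-0.051), length (0.016), trimming (-0.058) and UMIs per clonotype (0.13) gave sign-flip p-values of 0.5 to 1, and 0 Trbj genes and 0 pairs were called; without the block, the non-coding contrast called 8 Trbj genes. The block ended the call of Trbv20 with Trbj2-3 and changed no other call of a Trbj2 gene. Kidney depth limits the comparisons of organs, as 1 kidney held 693 coding UMIs.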

Other observations

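Trbv24 had the widest spread of its Trbj2 share among the tested V genes, at 68.7% of 217 clonotypes in the spleen of mouse 1, 60.3% of 262 in that of mouse 2 and 58.8% of 114 in that of mouse 3. It was not called (adjusted p = 0.226, limma).

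The constant gene does not separate the clusters in these clone lists. Trbj1 genes lie upstream of Trbc1 and Trbj2 genes downstream of it, but Trbc2 was the best hit of 95.2% to 99.7% of the Trbj1 clones and of 94.9% to 99.8% of the Trbj2 clones of a library.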
